A study of Mus musculus with 4 samples.

Results

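Mature neutrophils, the granulocytes with high Retnlg and Stfa2l1 RNA, were described among the tdTomato+ sorted cells of mouse femurs, in which 318 of 9795 called cells met the rule for them. A called cell had at least 500 genes, at most 20% mitochondrial UMIs and at least 2700 UMIs (unique molecular identifiers, the tags that count captured RNA molecules) in replicate 1, or at least 1000 genes, at most 15% and at least 4000 UMIs in replicate 2. A mature neutrophil was a called cell with at least 0.2% of its UMIs from Retnlg plus Stfa2l1, under 1% from Ltf plus Camp plus Ngp, under 0.2% from Elane plus Mpo plus Prtn3, and at most 1 Adipoq UMI. The members were thus chosen by their own measured RNA, so that the levels of the rule's genes, and every comparison with the neighbouring stage, are described and not tested. In the later test of ablation, 6 of the 9 genes of the rule stayed among the genes tested, and 0 of them passed.

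All 4 libraries came from mice of the genotype Cxcl12-iCreER; R26R(tdTomato/+), in which tamoxifen activates the recombinase in Cxcl12-expressing cells and so turns on the tdTomato reporter. Tamoxifen was given 7 days before the marrow of the right femur was ablated, and both femurs were taken 7 days after the surgery. The ablated femur (ABL) and the unoperated left femur (CONT) each gave 1 library in replicate 1, made with Chromium v2 chemistry, and 1 in replicate 2, made with v3 chemistry, and the cells of replicate 1 were pooled from several mice. Ages are not given in the labels, and the label was meant for stromal cells, so that every share below describes cells that passed the sort and not the marrow. The libraries held 44784072 (CONT) and 22889380 (ABL) UMIs in replicate 1, and 40486876 and 41536563 in replicate 2. Where 1 value is given for each library, the order is CONT then ABL of replicate 1, CONT then ABL of replicate 2, and levels are UMIs per 1000000 UMIs summed over the cells of a library (CPM).

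Neutrophils mature in the marrow through ordered waves of granule protein synthesis. Precursors make azurophil granule proteins such as Elane and Mpo, immature cells make specific granule proteins such as Ltf, Camp and Ngp, and later cells make gelatinase granules and then surface receptors for chemokines and for G-CSF. The mature cells form a marrow reserve that leaves through Cxcr2 signalling, carry much less RNA than their precursors, and are quick to transcribe chemokine and cytokine genes when they are disturbed. Retnlg encodes a secreted resistin-like protein of granulocytes, and the stefin A genes encode cysteine protease inhibitors.

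Most members carried mainly the RNA of neutrophils, but some in 3 of the libraries held much RNA of other cells. Median S100a8 plus S100a9, the calprotectin subunits that make up much of a neutrophil's RNA, was 34.0%, 34.6%, 31.0% and 40.4% of a member's UMIs. However, 27, 2, 0 and 4 members had less than 12%, and in those of CONT replicate 1 Hbb-bs, a haemoglobin chain, stood at 123196 CPM and Retnlg at 6856, and they held 25.1% of the UMIs of that library's members. The 4 such members of ABL replicate 2 had a median of 4594.5 genes and Col1a1, the collagen chain of osteoblasts, at 26524 CPM, and they held 43.8% of the UMIs of that library's members. These low-S100 members meet the rule and hold some Retnlg RNA beside the RNA of other cells. Cxcr2 was at 90.3 CPM in those of CONT replicate 1, at 0 in those of ABL replicate 1 and at 310.1 in those of ABL replicate 2. Their Retnlg in replicate 1, at 6856 and 3409 CPM, was under its level in empty droplets of the same libraries, given below. That level is the make-up of free RNA and not its share in a cell, and the source of this Retnlg was not tested. Without them, 17 of 134, 7 of 122, 0 of 125 and 79 of 132 described genes with at least 100 CPM moved by over 1.5-fold, in ABL replicate 2 60 upward and 19 downward and in replicate 1 all downward. Levels below are over all members, and values or counts without these cells are added for the main genes and lists, though not for each gene that moved. The plot sets each member's Retnlg plus Stfa2l1 share against its S100a8 plus S100a9 share. In CONT replicate 1 it shows no gap at 12%, with members at 11.9% and 12.4%, so that the limit divides a range there. The members nearest the limit were at 5.54% and 13.2% in ABL replicate 1 and at 10.5% and 27.3% in ABL replicate 2. In CONT replicate 2 the lowest member was at 14.2%.

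**Figure D1:**
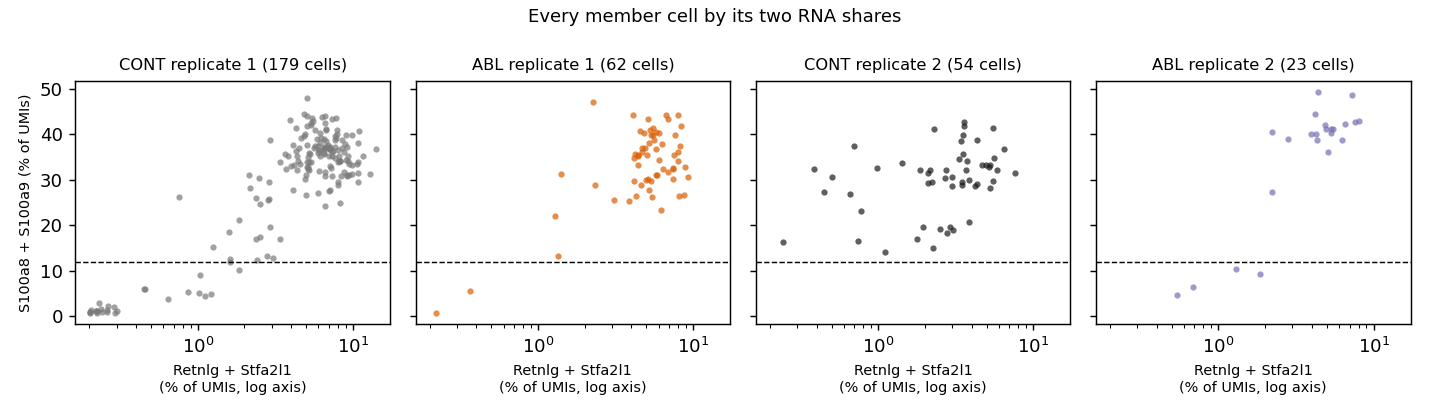
Each point is 1 of the 318 member cells, with its Retnlg plus Stfa2l1 share of UMIs in percent on a log x axis and its S100a8 plus S100a9 share in percent on the y axis, in 1 panel per library. The dashed line marks 12%, under which 27, 2, 0 and 4 cells lie in the 4 panels from left to right.

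In replicate 1 the lower limit on Retnlg plus Stfa2l1 lay under the level of Retnlg in empty droplets, which is the make-up of free RNA and not its share in a cell. It lay above the highest share in reticular cells (at least 5 Adipoq UMIs), which was 0.197% in CONT and 0.118% in ABL. Droplets with 1 to 300 UMIs, taken as empty, held Retnlg at 8150 and 4864 CPM in replicate 1 but 641 and 339 in replicate 2. Just inside the limit, from 0.2% to under 0.4%, were 17, 2, 2 and 0 cells, and just outside, from 0.1% to under 0.2%, were 159, 30, 0 and 0. The cells just inside it had a median of 1.201% S100a8 plus S100a9 in CONT replicate 1 and 3.15% in ABL replicate 1, against 24.4% in CONT replicate 2. At the other limit, 25, 5, 0 and 2 cells had 0.8% to under 1% of their UMIs from Ltf plus Camp plus Ngp and 16, 3, 1 and 3 had 1% to under 1.2%, with median S100a8 plus S100a9 shares between 37.4% and 43.7% on both sides in the libraries that had cells there.

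Other checks of the libraries gave 1 further difference. No member barcode was shared between libraries. Scrublet, a doublet caller, marked 6, 1, 0 and 1 of the members. Xist, the RNA of the inactive X chromosome in female cells, had 110, 29, 32 and 0 UMIs in the members and 9717, 7742, 24841 and 4 in all called cells, while 4 Y-linked genes (Ddx3y, Eif2s3y, Kdm5d and Uty) had 49, 3, 32 and 30 UMIs in the members. ABL replicate 2 was the only library with no Xist in its members, where 0 UMIs allow up to 16.98 CPM, so that in replicate 2 the sex of the cells and ablation cannot be told apart. Over all called cells of replicate 2, Xist stood at 735 CPM in the control library and at 0.113 in the ablated one, which femurs of the same mice would not give, so that ABL and CONT of replicate 2 are not treated as paired femurs.

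Mature neutrophils were small cells by RNA content. Their median UMI count was 3406, 3374, 6715.5 and 5194, below that of the immature neutrophils beside them, which was 6322.5, 6848.5, 16864 and 9774.5. Immature neutrophils were taken as called cells with at least 1% Ltf plus Camp plus Ngp and the same limits on Elane, Mpo, Prtn3 and Adipoq, and numbered 718, 208, 68 and 122. With every cell thinned to 2000 UMIs, mature neutrophils had a median of 593, 596, 703 and 581 genes detected, close to the 549, 566.5, 677 and 575 of immature ones and below the 1035, 1090, 1011 and 1033 of reticular cells, the Cxcl12-rich stromal cells (at least 5 Adipoq UMIs). Unthinned, the members' medians were 891, 893, 1508 and 1139 genes.

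The members were 179 of 3419 called cells in CONT replicate 1 (5.24%, 95% exact binomial interval 4.51% to 6.04%) and 62 of 1438 in ABL replicate 1 (4.31%, 3.32% to 5.49%). In replicate 2 they were 54 of 2397 in CONT (2.25%, 1.70% to 2.93%) and 23 of 2541 in ABL (0.905%, 0.575% to 1.36%). The intervals, which cover counting error only, overlapped in replicate 1 and did not overlap in replicate 2, and with 2 libraries against 2 the smallest two-sided p of an exact permutation test is 0.333. The mature part of all neutrophils was 19.96% and 23.0% in replicate 1 and 44.3% and 15.9% in replicate 2, so that the direction differed between the replicates.

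The shares in replicate 2 turned on the gene and UMI minimums. When all barcodes with at least 500 UMIs, at most 20% mitochondrial UMIs and at least 12% S100a8 plus S100a9 were counted, the mature pattern was found in 440, 133, 60 and 116 barcodes, of which 152, 60, 54 and 19 (34.5%, 45.1%, 90% and 16.4%) passed the minimums. In ABL replicate 2, 79 of the 97 barcodes left out were under both minimums and 15 were under the minimum of 1000 genes alone. In that wider count, chosen after the data were seen, mature neutrophils were 7.07% and 6.69% of barcodes in replicate 1, and 2.13% (1.63% to 2.73%) in CONT and 3.58% (2.97% to 4.28%) in ABL of replicate 2, the opposite order to that of the called cells. Their median depth in replicate 2 was 6460.5 UMIs in CONT and 2780.5 in ABL.

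**Figure D2:**
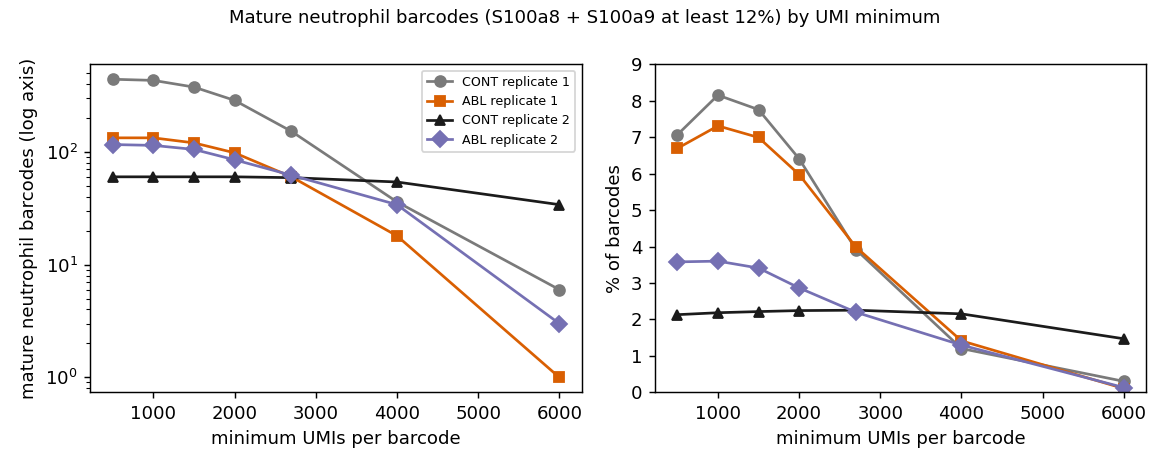
Barcodes with the mature neutrophil pattern (left, number on a log axis) and their share of all barcodes in percent (right) against the minimum UMIs per barcode, with 1 line per library and no minimum of genes. From 500 to 6000 UMIs the number fell from 440 to 6, from 133 to 1 and from 116 to 3 in CONT replicate 1, ABL replicate 1 and ABL replicate 2, and from 60 to 34 in CONT replicate 2, so that the order of the lines depends on the minimum.

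Retnlg (ENSMUSG00000022651, chr16:48872621-48874496, plus strand, GRCm38, GENCODE M21), is a gene of the rule. Its level in the members was 46536 and 51082 CPM in replicate 1 and 31447 and 32574 in replicate 2, higher in both libraries of replicate 1 and close within each replicate. In immature neutrophils it was 14271, 11259, 7515 and 7431. After removal of low-S100 members, it was 59810, 54432, 31447 and 51072, and CONT replicate 2 was then the lowest. At 2000 UMIs per cell every member had a Retnlg UMI, and so did 76.8% and 50.8% of reticular cells in replicate 1, against 1.05% and 1.47% in replicate 2.

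Stfa2l1 (ENSMUSG00000059657, chr16:36156811-36161953, plus strand), the other gene of the rule, was less even between libraries. It stood at 374 (95% exact Poisson interval 332 to 420), 553 (463 to 657), 1205 (1097 to 1319) and 113 (69.1 to 175) CPM, the last from 20 UMIs. CONT replicate 2 was the highest and ABL replicate 2 the lowest, and at 2000 UMIs per cell 24.6%, 32.3%, 38.9% and 8.70% of members had a UMI of it. In the wider count of barcodes it was 539, 610, 1215 and 652, so that the low value of ABL replicate 2 belonged to the cells that passed the minimums. Stfa2 was at 71.9, 84.5, 15.6 and 142, Stfa1 at 212, 76.0, 219 and 56.6, and Stfa3 at 133, 0, 20.8 and 0.

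Gm5483 and BC100530 lie between Stfa2l1 and Stfa2 in the stefin A cluster. Gm5483 was at 1655, 1973, 1264 and 730 CPM (2160.3, 2111, 1264 and 1289 without low-S100 members), over 3 log2 units above immature neutrophils in each library. BC100530 was at 1245, 587, 252 and 113, highest in CONT replicate 1 and lowest in ABL replicate 2. The stefin A genes are close copies of each other, and counts of 3′ tags may be split or exchanged between them, so that the values of single copies are uncertain. The bases before Stfa2l1 and Stfa2 are shown as the most alike promoters among Stfa1, Stfa2, Stfa2l1 and Stfa3. These were 92.3% identical over 246 aligned bases, against 82.9% to 86.9% for the other pairs. They lie before the start and not where 3′ tags fall, so that they do not show how alike the counted RNA is. The stretches (RefSeq, GRCm38.p6) were cut for Stfa2 at the first base annotated to that gene in GENCODE M21 and for Stfa2l1 at the base aligned to its end. In them 7 of 152 aligned bases differ, and capitals mark bases that differ or have no partner. The first is chr16:36156561-36156712 on the plus strand and the second chr16:36408458-36408613 on the minus strand.
Stfa2l1: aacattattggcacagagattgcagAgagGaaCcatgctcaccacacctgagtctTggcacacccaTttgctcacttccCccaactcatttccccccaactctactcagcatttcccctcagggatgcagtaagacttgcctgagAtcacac
Stfa2: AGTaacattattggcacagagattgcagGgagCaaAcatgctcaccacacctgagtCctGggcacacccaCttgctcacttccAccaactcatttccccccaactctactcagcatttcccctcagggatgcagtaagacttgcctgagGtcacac

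Retnlg carries the sequence TTGCNNAA, the motif of C/EBP factors, on 1 of the strands, both of which were searched, of the 250 bases before its RefSeq start, which are shown because Retnlg defines the cells. The match, in capitals, lies 239 to 246 bases before the start, and 9.56% of 32851 promoters of the same length hold one. The window is chr16:48872358-48872607 on the plus strand (RefSeq, GRCm38.p6).
Retnlg: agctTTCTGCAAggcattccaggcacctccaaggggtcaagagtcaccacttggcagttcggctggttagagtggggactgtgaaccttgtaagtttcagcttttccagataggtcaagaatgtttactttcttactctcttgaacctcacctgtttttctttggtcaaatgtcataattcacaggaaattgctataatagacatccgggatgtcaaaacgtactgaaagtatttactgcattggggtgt

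Of the 14 chemokine and cytokine genes, 3 had at least 100 CPM in 1 of the stages in each library (Cxcl2, Ccl6 and Il1b), and all 3 were at least 2-fold higher in mature neutrophils in all 4 libraries. They reached that level through the mature stage, where they are high, so that the count is no support for the list. Over all genes compared, 94 of 726 (12.9%) were at least 2-fold higher and 30 (4.13%) at least 2-fold lower, while 290 (39.9%) were higher and 180 (24.8%) lower by any amount. With low-S100 members left out, the same 726 genes gave 131 (18%) and 47 (6.47%) at least 2-fold apart, and 314 (43.3%) and 268 (36.9%) by any amount. Since the rule divides these cells by their own RNA, the counts are a description. In the lists below a count refers to genes at least 2-fold apart in the same direction in all 4 libraries unless it says otherwise. The 12.9% and 4.13%, or 18% and 6.47% without low-S100 members, apply to each such count, also where they are not repeated. A gene of any list may have reached the minimum level through 1 stage alone, so that no such count supports its list.

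Cxcl2 (ENSMUSG00000058427, chr5:90903871-90905938, plus strand) encodes the ligand of Cxcr2 that draws neutrophils. Its level was 1226 (1148 to 1308) and 1432 (1284 to 1593) CPM in replicate 1 and 3512 (3327 to 3705) and 674 (558 to 806) in replicate 2, with CONT replicate 2 the highest and ABL replicate 2 the lowest. Once low-S100 members were removed, it was 1583, 1528, 3512 and 1078, so that ABL was slightly under CONT in replicate 1 as well. Immature neutrophils had 83.6, 88.6, 103 and 48.1, which put the mature cells 3.86, 3.98, 5.08 and 3.73 log2 units higher. At 2000 UMIs per cell, 36.9%, 40.3%, 59.3% and 34.8% of mature neutrophils had a Cxcl2 UMI, against 8.08%, 5.77%, 8.82% and 3.28% of immature ones and 6.58%, 2.10%, 0.831% and 0.368% of reticular cells. Empty droplets held 299.7, 209, 86.8 and 56.7 CPM. Cxcl2 was highest over the immature stage by the value nearest 0, and the bases before it are shown for 2 overlapping matches to the NF-kB consensus, in capitals, 87 to 97 bases before the RefSeq start. Such a match is in 3.90% of the 32851 promoters described for Retnlg. Among the 8 promoters found for the 10 genes highest over immature neutrophils, counted by gene, those of Cxcl2 and Ccrl2 held it. Of these 8, 0 held the C/EBP motif and 0 the motif of AP-1 factors, which are in 9.56% and 6.75% of the 32851. The 222 bases are chr5:90903649-90903870 on the plus strand (RefSeq, GRCm38.p6), and end before the first base annotated to the gene in GENCODE M21.
Cxcl2: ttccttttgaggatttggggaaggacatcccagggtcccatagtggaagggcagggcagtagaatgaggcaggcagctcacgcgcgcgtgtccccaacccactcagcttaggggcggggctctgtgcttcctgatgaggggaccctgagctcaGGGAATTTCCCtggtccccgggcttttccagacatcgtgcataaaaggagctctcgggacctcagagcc

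Il1b (ENSMUSG00000027398, chr2:129364570-129371139, minus strand), the precursor of interleukin-1 beta, followed the same order of libraries. It was at 1482 (1396 to 1571), 2530 (2332 to 2741), 4904 (4685 to 5130) and 798 (672 to 941) CPM, against 129.5, 94.9, 145 and 86.6 in immature neutrophils. A UMI of it was in 61.5%, 62.9%, 81.5% and 43.5% of thinned mature cells, in 12.5%, 12.02%, 11.8% and 10.7% of immature ones and in 5.69%, 4.80%, 0.388% and 0.368% of reticular cells. Without low-S100 members, it was 1762, 2672, 4904 and 1320, in the same order. In the wider count of barcodes Il1b was 2778, 3271, 4976 and 3202, a narrower spread in which ABL replicate 2 was no longer lowest.

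Ccl6 (ENSMUSG00000018927, chr11:83587882-83593087, minus strand), a chemokine of myeloid cells, was at 1952, 2264, 2292 and 696 CPM and 3.79, 4.59, 5.41 and 3.67 log2 units over immature neutrophils. Both libraries of replicate 1 and CONT replicate 2 were close, and ABL replicate 2 was lower. Osm, a cytokine of the interleukin-6 family that acts on bone cells, was at 288, 427, 375 and 56.6, and Ccl4 at 166, 211, 234 and 45.3, each lowest in ABL replicate 2 as well. Tnf was low, at 19.97, 38.0, 33.8 and 5.66, from 15, 9, 13 and 1 UMIs. Il1a (0, 0, 7.80 and 0) and Il6 (5.32, 0, 5.203 and 0) were at or near the level of 3 UMIs, which is 3.99, 12.7, 7.80 and 16.98 CPM.

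**Figure D3:**
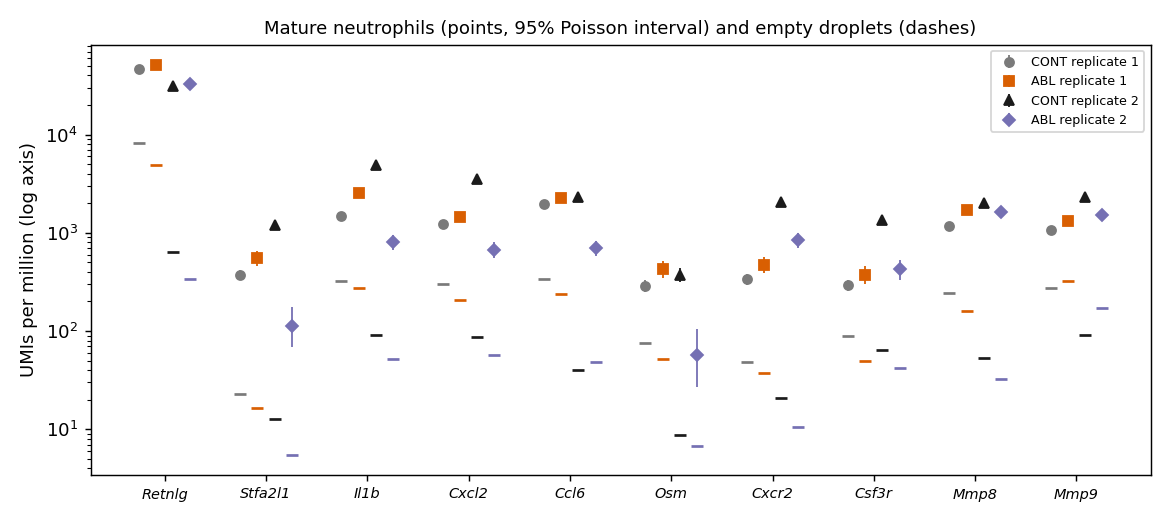
Level in CPM (log axis) of 10 genes in mature neutrophils of the 4 libraries, as points with 95% exact Poisson intervals that cover counting error only, with the level in empty droplets as dashes. For Stfa2l1, Il1b, Cxcl2, Ccl6 and Osm the lowest point is ABL replicate 2, whereas Mmp8 is lowest in CONT replicate 1, at 1165.

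Receptors were at least 2-fold higher in mature neutrophils for 4 of the 9 genes of the list that could be compared (Cxcr2, Ccr1, Csf3r and Il1rn, the last a secreted antagonist of the interleukin-1 receptor and not a receptor), and Ltb4r1, a leukotriene B4 receptor, was the 1 gene at least 2-fold lower (112, 131, 101 and 73.6 against 340, 327, 280 and 308 CPM). Over all genes compared, 12.9% were at least 2-fold higher and 4.13% at least 2-fold lower. Higher by any amount in all 4 libraries were 8 of the 9 (39.9% over all genes compared). Without low-S100 members 6 were at least 2-fold higher (18% over all genes compared). Cxcr2 (ENSMUSG00000026180, chr1:74153989-74161246, plus strand), the chemokine receptor of marrow exit, was at 337 (297 to 381), 473 (390 to 569), 2068 (1927 to 2217) and 838 (708 to 984). Both libraries of replicate 2 lay above both of replicate 1, and ABL was above CONT in replicate 1 and below it in replicate 2. Cxcr2 had a UMI in 50.3%, 71.0%, 98.1% and 91.3% of thinned mature cells and in 0.446%, 1.502%, 0.166% and 0% of reticular cells.

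Csf3r (ENSMUSG00000028859, chr4:126024550-126044440, plus strand), the G-CSF receptor, was at 292, 372, 1340 and 425 CPM against 71.2, 73.8, 148 and 122 in immature neutrophils, and CONT replicate 2 stood apart. The chemokine receptor Ccr1 (270, 317, 994 and 277) and Il1r2, the decoy receptor of interleukin-1 (523, 634, 705 and 345), were also highest in CONT replicate 2. Cxcr4, the receptor that retains cells in the marrow, was at 165, 190, 336 and 147, between 0.45 and 1.48 log2 units over immature neutrophils.

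Of 8 compared adhesion genes, 6 were higher by any amount in mature neutrophils in all 4 libraries (39.9% over all genes compared). Of these 6, 2 were at least 2-fold higher (12.9%). Lower by any amount was 1 of the 8 (24.8%), Itgb2l, an integrin chain of granulocytes. After removal of low-S100 members, 3 were at least 2-fold higher (18% over all genes compared) and 0 were lower in all 4 (36.9%). Selplg, the P-selectin ligand, was at 365, 570, 695 and 260 CPM and was at least 2-fold higher in mature than in immature neutrophils in each library. Itgam, the integrin chain CD11b, counted at ENSMUSG00000030786 of the features with this symbol, was at 152, 224, 526 and 385 against 189, 214, 644 and 424 in immature cells, less than 2-fold apart in each library, and without low-S100 members at 188, 235, 526 and 635, above immature cells in ABL replicate 2. Ly6g, the surface marker used to sort neutrophils, was at 606, 798, 346 and 504, under the 890, 870, 554 and 512 of immature neutrophils in each library. With low-S100 members left out, Ly6g was 776, 854.5, 346 and 846, so that it then stood above immature neutrophils in ABL replicate 2.

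Most specific granule genes stood lower. Of 10 genes of the list that were compared and are not in the rule, 6 were at least 2-fold lower in mature neutrophils in each library, where 4.13% of all genes compared were. These were Lcn2, Chil3, Cybb, Orm1, Anxa1 and Ltb4r1, the last a receptor that is also counted on the receptor list. Of the 10, 0 were at least 2-fold higher. The summed level of all 13 genes on the list, Ltf, Camp and Ngp of the rule among them, was 13683, 15545, 11738 and 12877 CPM against 133331, 136600, 124930 and 124088 in immature neutrophils. Lcn2, an iron-chelating protein, was at 2813, 4203, 4274 and 4466 in mature cells and 10686, 12325, 15123 and 13520 in immature ones. Chil3, a chitinase-like protein, differed more, at 268, 144, 169 and 221 against 5284, 6034, 9602 and 8556. Once low-S100 members were removed, Lcn2 was 7041 in ABL replicate 2 and less than 2-fold lower there. That left 5 genes, where 6.47% of all genes compared were at least 2-fold lower. Mmp8, the neutrophil collagenase, and Ceacam10 were higher by less than 2-fold in at least 1 library, Mmp8 at 1165, 1690, 2016 and 1624 against 737, 744, 1433 and 880, or 0.66, 1.18, 0.49 and 0.88 log2 units higher. Leaving out low-S100 members, Mmp8 was 1482, 1786, 2016 and 2699.7 CPM, with ABL replicate 2 the highest library in place of CONT replicate 2.

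Of 7 compared gelatinase granule and secretory vesicle genes, 3 were at least 2-fold higher (12.9% of all genes compared) and 0 at least 2-fold lower in each library. Those higher included Fpr1, a formyl peptide receptor (302, 384, 323 and 232 CPM), and Cd14, the co-receptor for lipopolysaccharide (1022, 1132, 947 and 934). Without low-S100 members, 5 of the 7 were at least 2-fold higher (18% of all genes compared), Mmp9 among them, and Fpr1 was 385.5, 411, 323 and 363 and Cd14 1224, 1198, 947 and 1632, so that ABL replicate 2 was above CONT replicate 2 for both. Mmp9, the gelatinase itself, was at 1066, 1326, 2308 and 1523, between 0.67 and 1.22 log2 units over immature neutrophils. It was 1359, 1415, 2308 and 2377 without low-S100 members, and ABL replicate 2 was then slightly above CONT replicate 2. Of the 6 genes of the NADPH oxidase, which makes superoxide, Cybb (chrX:9435252-9487771, minus strand), its catalytic chain, was at 120, 122, 177 and 221 against 663, 715, 1888 and 1425 in immature neutrophils. The other 5 differed by less than 2-fold in at least 1 library, with Ncf1 at 314, 401, 702 and 391 against 388, 445, 715 and 444. Azurophil granule genes were low in replicate 2 and less so in CONT replicate 1, with 196, 59.1, 10.4 and 5.66 CPM over the 6 genes of the list, 3 of which are in the rule.

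Recognition receptors were at least 2-fold higher for 5 of 8 compared genes, and for 7 without low-S100 members, where 12.9% and 18% of all genes compared were. Higher by any amount were 7 and 8, where 39.9% and 43.3% of all genes compared were. Clec4d was at 355, 520, 898 and 425 CPM and Clec4e, also called Mincle, at 616, 819, 1106 and 475, both C-type lectins that bind microbial glycolipids. Trem1, which amplifies inflammatory signals, was at 437, 414, 650 and 351. Tlr2 was at 126, 194, 320 and 147. The 10 genes that stood highest over immature neutrophils, by the value nearest 0 over the libraries, were Cxcl2, Ccl6, Gm5483, Il1b, Cd300ld, Clec4d, Ccrl2, Pim1, Dusp1 and Slc15a3. The 10 that stood lowest were Fcnb, Orm1, Chil3, Zmpste24, Cebpe, Lta4h, Gca, Serpinb1a, Cybb and Cpne3. Fcnb, a secreted lectin of immature granulocytes, was at 6.66, 0, 0 and 0 against 303, 235, 734 and 421. All 20 were at least 2-fold apart in the same direction in each library also without low-S100 members, in the wider count of barcodes, after subtraction of free RNA and after thinning. In each of these settings only the mature side was changed, and it was set against the same unchanged immature cells. The 20 were also chosen by this ratio in these cells, so that their keeping it is no support.

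**Figure D4:**
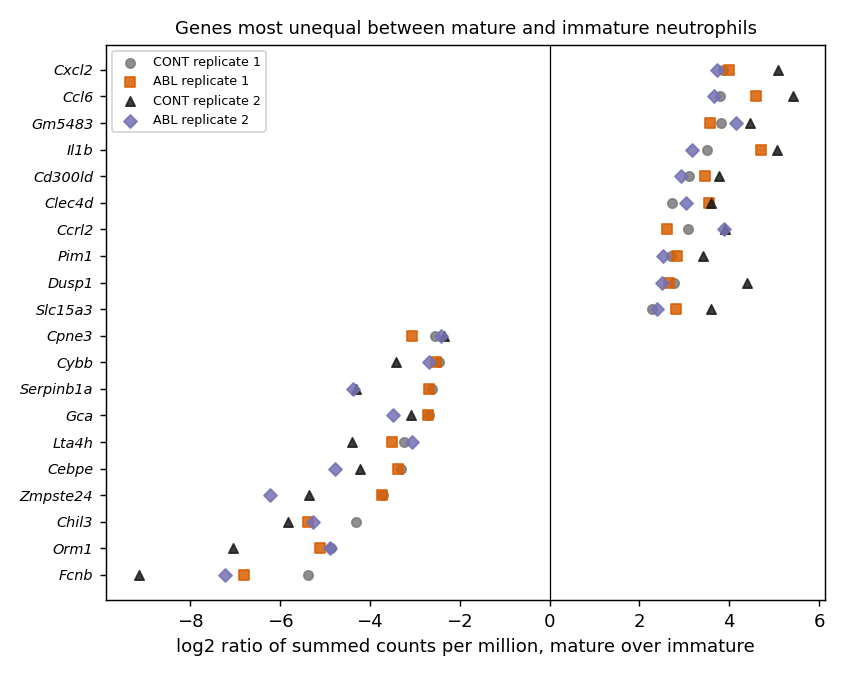
Log2 ratio of CPM in mature over immature neutrophils, with 0.5 UMIs per library added to both, for the 10 genes highest and the 10 lowest by the value nearest 0, with 1 point per library. Every point of the upper 10 genes lies above 2 and every point of the lower 10 below -2, and the ratios of Fcnb in 3 libraries, Orm1 in CONT replicate 2 and Zmpste24 in ABL replicate 2 depend on the added count because the mature level is 0.

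Among transcription factors, 4 of 8 compared genes were at least 2-fold higher (12.9% of all genes compared) and 1 was at least 2-fold lower (4.13%). Higher by any amount were 7 (39.9%). The counts were the same without low-S100 members, where the shares over all genes compared were 18%, 6.47% and 43.3%. Cebpe, which drives specific granule genes, was at 37.3, 38.0, 18.2 and 11.3 CPM in mature cells and 376, 415, 364 and 383 in immature ones, with no overlap. Cebpb, the factor of emergency granulopoiesis, was at 2358, 2703, 2227 and 1058 against 612, 581, 364 and 376. Nfkbia, the inhibitor of NF-kB that NF-kB itself induces, was at 616, 718, 1257 and 402 against 237, 262, 243 and 196.

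Immediate early genes were at least 2-fold higher in mature neutrophils for 7 of 9 compared genes and higher by any amount for 8, against 12.9% and 39.9% of all genes compared. After removal of low-S100 members, 5 were at least 2-fold higher (18% of all genes compared). Fos in ABL replicate 2 was then 201.5 CPM and less than 2-fold higher. Fos was at 722, 866, 1938 and 294 CPM, Dusp1, a phosphatase of MAP kinases, at 539, 655, 1316 and 340, and Zfp36, which destabilises cytokine RNA, at 342, 414, 1067 and 340. The whole list of 16 summed to 5112, 4976, 9563 and 4194 in mature neutrophils, to 1747, 1820, 1429 and 1401 in immature ones and to 8744, 7410, 16880 and 6387 in empty droplets. CONT replicate 2 was highest in both mature cells and empty droplets, and the part of dissociation and of free RNA in these levels was not tested.

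Of the 12 survival genes only 3 could be compared, and 2 of these were at least 2-fold higher, where 12.9% of all genes compared were. They were Mcl1, which keeps neutrophils alive, at 310, 211, 1740 and 594 CPM and Pim1, a kinase downstream of G-CSF, at 382, 380, 812 and 323. Both libraries of replicate 2 were above both of replicate 1 for Mcl1. Of the interferon-stimulated genes, Ifi27l2a (478, 359, 453 and 402) and Slfn1 (164, 194, 432 and 175) were higher, whereas Ifit1, Ifit2, Ifit3 and Usp18 did not exceed 16.9 in a library. Ifi27l2a was 570.3, 285, 453 and 665 without low-S100 members, with ABL above CONT in replicate 2 alone. Of 8 compared glycolysis genes, 1 was at least 2-fold higher (Slc2a3, a glucose transporter, at 190, 224, 526 and 249), against 12.9% of all genes compared. At least 2-fold lower were 0 (4.13%), while 2 were lower by any amount in all 4 libraries (24.8%). With low-S100 members left out, 5 were higher and 2 lower by any amount, where 43.3% and 36.9% of all genes compared were. Proliferation genes were lower by any amount for 5 of 7 (24.8% of all genes compared) and at least 2-fold lower for 2 (4.13%), Stmn1 and H2afz. Without low-S100 members these counts were 7 (36.9%) and 6 (6.47%). Over all members Mki67, the marker of cycling cells, was at 57.2, 29.6, 0 and 11.3. Malat1, a nuclear RNA, was at 11592, 10953, 18645 and 17128, more than 2-fold over the 5159, 5023, 6462 and 6026 of immature neutrophils.

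The members also varied among themselves along Ltf plus Camp plus Ngp. Those with at least 12% S100a8 plus S100a9 were divided at 0.1% and 0.3%, which left 0, 30 and 122 cells in CONT replicate 1, 3, 28 and 29 in ABL replicate 1, 47, 2 and 5 in CONT replicate 2, and 4, 4 and 11 in ABL replicate 2. These are ranges of a score and not types. Empty droplets held Camp, Ltf, Ngp, Lcn2 and Chil3 at a summed 30780 and 20118 CPM in replicate 1 and 3948 and 2523 in replicate 2, and the part of free RNA in the ranges was not tested. Between the middle and the upper range, Cxcl2 was 2523 and 1356 CPM in CONT replicate 1 and 1781 and 830 in ABL replicate 1. Between the lowest and the upper range it was 4111 and 1222 in CONT replicate 2 and 2229 and 528 in ABL replicate 2, so that Cxcl2 was higher in the range of lower granule RNA in each of these comparisons. The sets of 3, 2 and 4 cells left out of them, the lowest range of ABL replicate 1 and the middle ranges of CONT and ABL replicate 2, had Cxcl2 at 7235, 123 and 1622 CPM and Il1b at 2376, 555 and 487. Over the 3 ranges Cxcl2 thus fell step by step in both ABL libraries but not in CONT replicate 2, and Il1b did not do so in ABL replicate 1 or in either library of replicate 2.

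Between the same ranges Ccl6 had the same order, at 3246 and 2044, 3642 and 1348, 2647 and 960, and 1634 and 957 CPM in the same ranges of the 4 libraries. Il1b did too, at 2030 and 1698, 3462 and 1991, 5713 and 1745, and 3417 and 875. Mmp8 and Lcn2 ran the other way between these ranges. Mmp8 was 1161 and 1559, 1411 and 2215, 1567 and 3648, and 991 and 2971, and Lcn2 was 2395 and 3854, 3262 and 5394, 3407 and 8535, and 4705 and 8187. The small sets left out did not all follow these orders. In the lowest range of ABL replicate 1 and the middle ranges of CONT and ABL replicate 2, Ccl6 was 1728, 185 and 703, Mmp8 648, 4869 and 3676, and Lcn2 5508, 5855 and 5839 CPM. The lowest and upper ranges hold only 4 and 11 cells in ABL replicate 2 and the upper range 5 cells in CONT replicate 2, and the ranges come from the same RNA, so that this is a description with no test.

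To ask whether ablation changed the members, UMIs were summed per library and tested with edgeR's quasi-likelihood test with the replicate number as a block. Of 2837 genes tested, 0 passed an adjusted p of 0.05 (0.0%), and 16 had an unadjusted p under 0.05. Without the block 0 passed, with 36 at an unadjusted p under 0.05, and DESeq2 called 1 gene (Col1a2), with 50. The median standard error of a log2 fold change was 0.795, with 1 residual degree of freedom. Even a large difference could miss the threshold, as Col1a1 did at 6.73 ± 2.72 (log2, ABL over CONT, SE). A difference that misses the threshold here is not shown to be absent. All 4 marker genes (Retnlg, Stfa2l1, Stfa2 and Cxcl2) were among the genes tested.

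Cxcl2, Il1b and Cxcr2 each had opposite signs in the replicates, and 0 of the 3 passed. Cxcl2 differed by -0.999 ± 0.9999 (log2, ABL over CONT, SE; edgeR adjusted p = 1.0), from 0.13 in replicate 1 and -2.58 in replicate 2, and by -0.72 without low-S100 members. Il1b differed by -0.84 ± 1.12, from 0.68 and -2.82, and Cxcr2 by -0.33 ± 0.95, from 0.39 and -1.504. In the wider count of barcodes these were -0.85 ± 0.29, -0.11 ± 0.29 and -0.14 ± 0.29, and 0 of the 3 passed (edgeR adjusted p from 0.371 to 0.999). Cxcl2 was then 2144 and 1471 CPM in replicate 1 and 3564 and 1404 in replicate 2, lower in ABL in both.

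By list, 0 of the 150 listed genes tested passed, and the median of all genes tested was -0.04. The 10 chemokine and cytokine genes tested had a median of -0.85, with 0 higher and 2 lower in ABL in both replicates (Csf1 and Vegfa), where 6.87% and 32.2% of all genes were higher and lower in both. The 13 receptor genes had a median of -0.33, with 0 higher and 4 lower in both. The 12 specific granule genes had a median of 0.17, with 1 higher and 0 lower in both. The 16 immediate early genes had a median of -0.39, with 0 higher and 5 lower in both, and Hspa1a, a heat shock protein, was at 217, 50.7, 54.6 and 0 CPM, or 51.5, 54.3, 54.6 and 0 without low-S100 members. Both ABL libraries lay above both CONT libraries for 5.46% of all genes tested and below them for 7.86%.

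RNA of other cell types in the members was measured beside this. Osteoblast markers (Col1a1, Bglap and Ifitm5) summed to 120, 900, 18.2 and 13103 CPM, led by Col1a1 at 98.5, 684, 2.60 and 11790. Once low-S100 members were removed, Col1a1 was 90.6, 678, 2.60 and 302, and in empty droplets it was 396, 5289, 353 and 11623, so that ABL exceeded CONT in both places in both replicates. Of the erythroid markers, Hbb-bs was the most abundant, at 37604, 22865, 200.3 and 45.3, and Car2 was at 426, 329, 0 and 0. Without low-S100 members, Hbb-bs was 8971, 11999, 200.3 and 60.4 and Car2 65.7, 94.9, 0 and 0, and ABL was then above CONT in replicate 1 for both. Reticular markers (Cxcl12, Adipoq and Lepr) summed to 1008, 697, 169 and 22.6 and monocyte markers (8 genes) to 304, 127, 107 and 16.98. Of the B cell markers, Cd79a was at 67.9, 33.8, 23.4 and 0 and Ebf1, the most abundant in 3 of the libraries, at 153, 88.7, 7.80 and 187, or 85.3, 31.6, 7.80 and 20.1 without those members. Of the 4 eosinophil markers Prg2, Epx and Il5ra were at 0 in the members of all 4 libraries, and Siglecf was at 2.66, 0, 10.4 and 0. Of the T and NK cell markers in the files Cd3e was at 0 in all 4, Cd3d at 201, 211, 156 and 175 and Nkg7 at 3.99, 0, 0 and 11.3.

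**Figure D5:**
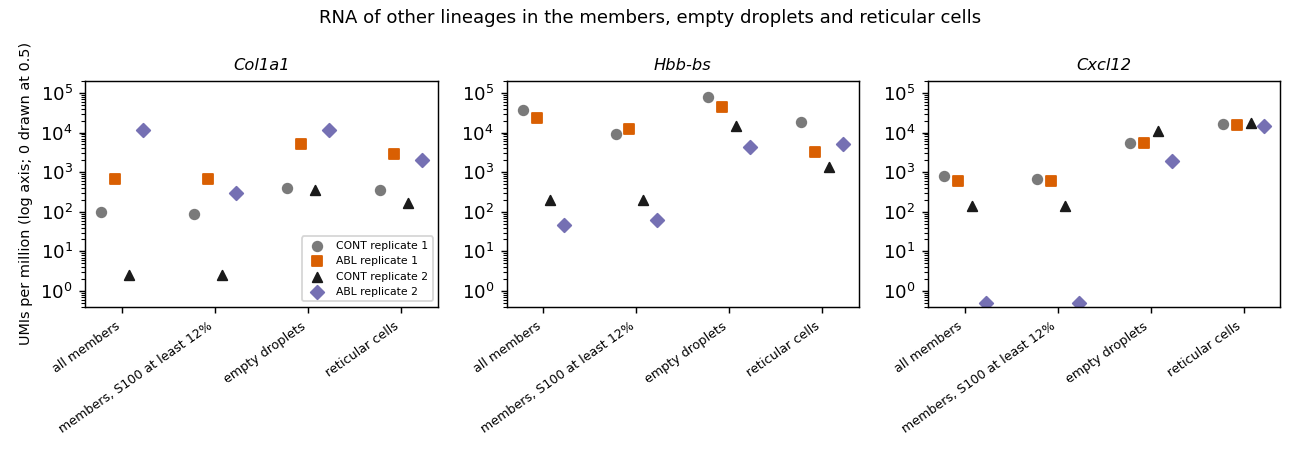
Level in CPM (log axis, with 0 drawn at 0.5) of Col1a1, Hbb-bs and Cxcl12 in all members, in members with at least 12% S100a8 plus S100a9, in empty droplets and in reticular cells, with 1 point per library. Col1a1 in ABL replicate 2 is 11790 in all members and 302 without the cells under 12%, and Cxcl12 is 0 there in both sets.

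In the wider count of barcodes, 11 of 2988 genes passed (0.368%), and 0 passed there without the replicate block. The 7 that rose in ABL were Col1a1, Col1a2, Col2a1, Col3a1, Sparc and Spp1, which are matrix genes of skeletal cells, and the reporter transcript tdT-WPRE_trans. The reporter differed by 1.74 ± 0.35 (log2, SE) in the wider count. Among the called members its log2 ratio was -1.60 in replicate 1 and 4.38 in replicate 2, so that the direction differed there. Col1a1 differed by 3.54 ± 0.34 (log2, SE, edgeR adjusted p = 6.26e-21), from 80.8 and 670 CPM in replicate 1 and 2.48 and 198 in replicate 2, each under the level in empty droplets of the same library. The 4 that fell were Ly6d, Serping1, Igfbp5 and Vegfa. Of these 11, only Col1a1 and Vegfa were on the lists, Vegfa at 54.8, 0, 86.8 and 41.8 CPM and at 178, 197, 639 and 122 in empty droplets. The part of free RNA in these calls was not tested.

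The sort was for tdTomato. In the members the reporter transcript tdT-WPRE_trans stood at 261, 88.7, 28.6 and 815 CPM, under the 447, 536, 923 and 886 of empty droplets and the 1915, 1622, 1100 and 1128 of reticular cells in each library. ABL replicate 2 was the highest and CONT replicate 2 the lowest, and without low-S100 members the levels were 171, 94.9, 28.6 and 705, with the same order. The estimated share of free RNA times the level in empty droplets gives 68.9, 57.6, 11.7 and 8.81 CPM.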

How the data were processed

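The authors sorted tdTomato+ cells, made 3′ tag libraries and aligned them with Cell Ranger to mm10 with reporter sequences added, and deposited UMI counts per gene and barcode with no normalization (per the matrix header, software version 3.0.0 for v3), covering 737280 barcodes in each v2 library, 6794880 in each v3 library and 28006 features. Barcodes were called by the study's limits on genes and mitochondrial UMIs, together with UMI minimums. The members and lists were chosen with earlier results of these data known, and 225 of 228 list genes were in the files. Groups came from the sample titles.

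Counts were summed per library over the 751199, 236738, 384390 and 176674 UMIs of the members, since cells are not replicates, and tested with edgeR 4.0.16 (TMM, filterByExpr, quasi-likelihood, Benjamini-Hochberg over all genes tested) in R 4.3.3, with DESeq2 1.42.0 as an alternative. The study calls the replicates biological, but the labels do not name the mice of each library, so that p-values measure the spread between these libraries. The replicate number marks the Chromium version and the experiment, and was therefore a block. It does not stand for the same mice, since Xist differed between the libraries of replicate 2. Deviations from the condition means of CONT and ABL within replicates correlated at 0.134 over 2837 genes. The script for the test was tested on simulated data. The standard error (SE) of an edgeR difference was taken as the absolute log2 fold change over the square root of its F statistic. Intervals are exact 95% binomial or Poisson intervals, and 3 UMIs are the floor. Doublets were marked with Scrublet (scanpy 1.11.5) and kept. Free RNA was estimated from droplets of 1 to 300 UMIs. Its share was taken as the fraction of Adipoq, Cxcl12 and Lepr in the members over that in these droplets. This gave 15.4%, 10.8%, 1.26% and 0.994%. The rule allows a member at most 1 Adipoq UMI, and low-S100 members, with RNA of other cells, are in the sums, so that these shares are rough.

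Named genes were those of the lists, genes past the threshold (the 10 largest each way with at least 50 CPM and 1 direction in both replicates), and the 10 highest and 10 lowest over immature neutrophils by the value nearest 0 over the libraries, among genes with at least 100 CPM in 1 stage of every library. The 11 genes called in the wider count of barcodes were named after their values were seen. The alternatives were the fit without the block, DESeq2, other scaling, no filter on low counts, other limits for members, other cell calling, doublets left out, free RNA subtracted, cells thinned to 2000 UMIs, and leaving out each library or replicate. The limit of 12% S100a8 plus S100a9 and its use with barcodes of at least 500 UMIs were added after the data were seen. Coordinates are those of GENCODE M21 (GRCm38), and Ensembl IDs were matched to it. Some genes of the lists are not reported here.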

Additional observations from a re-analysis of the deposited data

Results flagged for a closer look

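In ABL replicate 2, 97 barcodes with at least 500 UMIs, at most 20% mitochondrial UMIs and the mature neutrophil pattern, including at least 12% S100a8 plus S100a9, were left out by the minimums of 1000 genes and 4000 UMIs, whereas 19 passed. They draw attention because they lie outside the called cells that were compared and outnumber them, and because in the CONT library of replicate 2 6 were left out and 54 passed. With them, Stfa2l1 in ABL replicate 2 was 652 CPM in place of 113, and Il1b 3202 in place of 798. Each group has 2 libraries, so that no group was large enough to test for a sample far from the others.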

How the results depend on the processing

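The mean ABL minus CONT difference in the share of mature neutrophils among called cells was -1.14 percentage points. It was -0.326 with Ltf plus Camp plus Ngp under 0.3%, -3.05 with the study's filter alone, and 0.538 in the wider count of barcodes, where the direction turned, and it ranged from -1.35 to -0.924 when either replicate was left out. The mature share of all neutrophils differed by -12.7 points. The sign turned with at least 500 UMIs as the only minimum (1.35) and in the wider count (3.62), and leaving out a replicate gave -28.4 to 3.01. The number of genes called, 0 with the replicate block and 0 without it, was 1 with DESeq2, 2 with no filter on low counts (Bglap and Smpd3) and 11 in the wider count. With each library left out and no block it ranged from 0 to 110, with 110 without CONT replicate 1, 19 without ABL replicate 1, 5 without CONT replicate 2 and 0 without ABL replicate 2, where the lone library of a group is assumed to vary like the others. For listed genes it was 1 (Bglap) with no filter, 2 in the wider count, 6, 4, 1 and 0 without those libraries in the same order, and 0 in all other settings. Log2 differences without replicate 1 and without replicate 2 ranged from -2.58 to 0.13 for Cxcl2, from -2.82 to 0.68 for Il1b and from -1.504 to 0.39 for Cxcr2. Without CONT replicate 2, Il1b turned to 0.20 and Cxcr2 to 0.79, and without ABL replicate 2 Il1b turned to 0.089. Col1a1 kept its direction in every setting run. The cause of these changes was not tested. With a whole replicate left out, 1 library a group remains and no count of called genes was possible. Depth limits the result most in ABL replicate 2, with 23 cells and a floor of 16.98 CPM for 3 UMIs.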
